A study of Caenorhabditis elegans with 2 samples.

Results

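The genes of biotype snoRNA or snRNA on the 6 nuclear chromosomes of Caenorhabditis elegans were taken from the Ensembl WBcel235 annotation, which is the ce11 build. There were 475 of them among 46890 annotated genes, 346 snoRNA and 129 snRNA. For each one the distance from its 5′ end to the nearest summit of EFL-1 binding was measured, and negative distances lie upstream of the gene. EFL-1 is a worm E2F transcription factor. Its binding had been profiled by chromatin immunoprecipitation and sequencing in whole L1 larvae of strain MT10430, lin-35(n745) I, with both sexes pooled. There was 1 group of 2 samples, called biological replicates 2 and 3 in the labels. All animals carried lin-35(n745), a mutant allele of the retinoblastoma family gene lin-35. With no other genotype, whether binding depends on LIN-35 could not be compared. A whole-larva sample also gives no cell type for any site.

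Small nucleolar RNAs guide the modification of ribosomal and spliceosomal RNA, box C/D types for methylation and box H/ACA types for pseudouridylation. The snRNAs form the core of the spliceosome, and in nematodes the spliced leader RNAs SL1 and SL2 are joined to the 5′ ends of many messenger RNAs by trans-splicing. Many snoRNA genes lie in introns of a host gene and are released from its transcript, while others, and the snRNA genes, are transcribed from promoters of their own. In worms those own promoters can resemble that of snRNA genes, with a proximal sequence element bound by the SNAPc complex, or that of tRNA genes, with the box A and box B read by RNA polymerase III.

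Of the 475 genes, 220 lay wholly inside a protein-coding host gene on the same strand, 59 lay inside one on the opposite strand only, and 196 lay inside no protein-coding gene and are called independent below. Names are those of RefSeq for the same gene identifiers, and 475 of 475 genes were matched. The summits were those of the 4534 peaks in the list filtered by IDR, a measure of reproducibility between replicates. Their median width was 316 bp and their median signal value 125, on the scale of the authors' peak caller. Depth is unknown, so no interval that needs it is given. The possible control that the labels point to was not analysed here. The spread between replicates was read from the 4534 strongest regions in each replicate's own list.

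The sequences below are promoters on which the results turn, each the 100 bases directly before the annotated 5′ end on the gene's strand, read from RefSeq's WBcel235 genome. The first set carried a pattern of the snRNA promoter type, AA and TGTC separated by 9 bases and starting between 75 and 45 bp before the 5′ end, which is in capitals. It is shown for a spliced leader gene (sls-2.8), further snRNA genes (C52E4.8, W05B2.8, sup-39) and snoRNA genes (Y55F3BR.9, T06D8.11), all with a summit in the stretch printed.
sls-2.8, chrIII:12250365-12250464, plus strand: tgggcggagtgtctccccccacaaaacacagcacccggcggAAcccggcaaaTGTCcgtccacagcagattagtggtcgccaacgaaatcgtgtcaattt
C52E4.8, chrV:11980018-11980117, plus strand: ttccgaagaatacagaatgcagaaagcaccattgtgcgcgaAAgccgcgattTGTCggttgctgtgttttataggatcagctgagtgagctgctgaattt
W05B2.8, chrIII:10989579-10989678, plus strand: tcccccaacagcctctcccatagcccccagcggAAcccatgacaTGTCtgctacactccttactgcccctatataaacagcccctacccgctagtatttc
Y55F3BR.9, chrIV:867134-867233, minus strand: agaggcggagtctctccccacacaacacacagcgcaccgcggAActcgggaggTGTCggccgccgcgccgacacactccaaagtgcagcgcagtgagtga
sup-39, chrII:6968559-6968658, minus strand: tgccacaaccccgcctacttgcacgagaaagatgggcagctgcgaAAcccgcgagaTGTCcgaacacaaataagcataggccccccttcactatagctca
T06D8.11, chrII:11224082-11224181, plus strand: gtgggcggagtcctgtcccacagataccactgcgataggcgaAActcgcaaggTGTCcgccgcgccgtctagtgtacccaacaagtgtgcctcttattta

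The second set carried patterns of the tRNA promoter type, all of them at snoRNA genes with a summit in the stretch printed. Capitals mark GTTCNA, a box B pattern that starts from 35 bp before to 5 bp after the 5′ end, and TGGCNNA, a box A pattern that starts from 85 to 35 bp before it.
C05D2.15, chrIII:5602180-5602279, minus strand: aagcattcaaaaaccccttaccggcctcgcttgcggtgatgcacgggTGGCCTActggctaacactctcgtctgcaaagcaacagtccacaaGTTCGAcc
C04G6.12, chrII:5105232-5105331, minus strand: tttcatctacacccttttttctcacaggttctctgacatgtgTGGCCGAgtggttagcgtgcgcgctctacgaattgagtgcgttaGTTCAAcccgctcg
T24H7.6, chrII:6248617-6248716, plus strand: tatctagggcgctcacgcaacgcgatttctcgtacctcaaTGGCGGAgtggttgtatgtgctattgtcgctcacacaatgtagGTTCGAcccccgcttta
F55A11.10, chrV:11782892-11782991, plus strand: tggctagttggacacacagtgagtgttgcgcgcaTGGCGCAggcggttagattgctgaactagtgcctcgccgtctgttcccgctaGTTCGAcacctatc
C41C4.11, chrII:8107271-8107370, minus strand: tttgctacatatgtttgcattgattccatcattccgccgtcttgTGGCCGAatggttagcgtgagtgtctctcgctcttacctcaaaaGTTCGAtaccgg
K11C4.6, chrV:6888976-6889075, plus strand: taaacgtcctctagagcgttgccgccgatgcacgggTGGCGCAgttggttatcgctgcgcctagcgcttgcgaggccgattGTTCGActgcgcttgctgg

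The third set had a summit in the stretch printed as well, but neither the snRNA-type element nor box B in its range, so it has no capitals.
Y53F4B.47, chrII:15025894-15025993, minus strand: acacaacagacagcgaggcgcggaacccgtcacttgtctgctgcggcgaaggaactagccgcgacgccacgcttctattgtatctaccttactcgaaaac
sls-2.2, chrII:5543498-5543597, plus strand: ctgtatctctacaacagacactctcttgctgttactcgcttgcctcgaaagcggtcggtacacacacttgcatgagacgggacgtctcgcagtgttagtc

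These patterns were searched on the gene's strand, and the patterns and their ranges were chosen after the promoters of bound genes had been seen. A match is a description of the letters and not a mapped site.

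An EFL-1 summit lay within 500 bp of the 5′ end at 141 of the 475 genes, or 29.7%. The same was true of 9.73% of all annotated genes, 15.4% of protein-coding genes and 27.3% of tRNA genes. All annotated genes include 15363 piRNA genes, of which 1.52% were near a summit, and these lower the all-gene shares. The bases within 500 bp of a summit made up 4.42% of the 6 chromosomes. The replicates' own lists gave 137 genes in replicate 2 and 142 in replicate 3, with 132 in both, where the background over all genes was 9.71% and 9.64%. Among snoRNA genes 116 of 346 were near a summit (33.5%), with 113 in replicate 2 and 117 in replicate 3. Among snRNA genes 25 of 129 were (19.4%), with 24 in replicate 2 and 25 in replicate 3. The share was thus above that of protein-coding genes for both classes. The gap between the classes was wider than the spread between replicates, though that spread does not measure the uncertainty of a gap between gene classes. The classes also differ in how much repeated sequence they hold. The gap was narrower among genes alike in this, as given with the snRNA families below.

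The distance was short. At 94 genes, 19.8% of the 475, the nearest summit lay from 0 to 100 bp upstream of the 5′ end, against 1.89% of all genes, 2.93% of protein-coding genes and 11.4% of tRNA genes. Each replicate's own list placed 89 genes in this range, 79 of them in both, against 1.91% of all genes in replicate 2 and 1.92% in replicate 3. The 94 were 77 snoRNA and 17 snRNA genes. Within the range, 34 summits lay 60 to 41 bp upstream, 28 lay 40 to 21 bp upstream, 14 lay 80 to 61 bp upstream and 13 lay 20 to 1 bp upstream. The median of the 94 was −46 bp. In both replicates the nearest summit of the 4534 strongest regions lay within 50 bp of that place at 87 of the 94 genes, and the median shift was 6 bp in replicate 2 and 10 bp in replicate 3. At all 94 the summit was nearer to the small RNA gene than to any annotated 5′ end of a protein-coding gene. At some of them another gene, not protein-coding, was nearer still, such as T08B2.t1 beside T08B2.13 and M01E5.t1 beside sls-2.9. The profile around the annotated 5′ ends differed from those of the other gene classes. How far such an end lies from the start of transcription was not examined and may differ between classes. Summits near protein-coding genes were most frequent 200 to 100 bp upstream, in 4.84% of them. Around tRNA genes they fell on both sides, 11.3% in the 100 bp before and 12.1% in the 100 bp after the 5′ end.

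**Figure D1:**
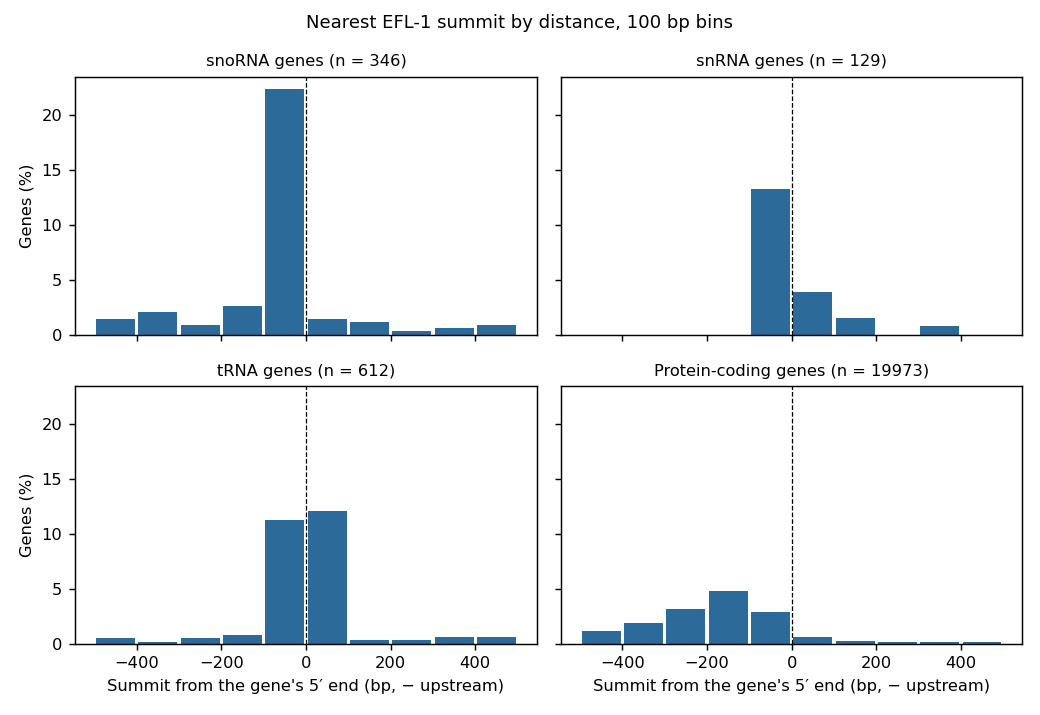
Share of genes (%) with their nearest EFL-1 summit in each 100 bp bin from 500 bp upstream (negative) to 500 bp downstream of the 5′ end, for snoRNA, snRNA, tRNA and protein-coding genes. The snoRNA genes peak in the bin just upstream at 22.3%, where snRNA genes reach 13.2%, while tRNA genes are split over the 5′ end and protein-coding genes are spread further upstream.

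The other genes near a summit fell in both directions. At 24 genes, all snoRNA, the summit lay 102 to 488 bp upstream, and at 23 genes it lay downstream. Among those near the edge of the 500 bp window, Y37E3.21 (−488 bp) and R08C7.19 (494 bp) were just inside. C06A1.9 and R151.11, each at −506 bp, were just outside, and their hosts cdc-48.1 and rpl-6 held the peak beyond the edge.

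The share of snoRNA genes near a summit differed with their place. Among the independent ones 58 of 130 were near a summit, or 44.6%, with 56 in replicate 2 and 57 in replicate 3. Those on the opposite strand of a gene reached 45.5%, 15 of 33, with 14 and 13 in the replicates. Those on the same strand inside a host stood at 23.5%, 43 of 183, with 43 and 47. Other non-coding genes without piRNA, placed the same ways, were near a summit in 10.7%, 8.53% and 9.79%, which is a narrower range than that of the snoRNA genes. The difference held for the IDR list and both replicate lists but shrank with every region of the joint list, weak ones included, where 62.3% of independent and 58.5% of same-strand hosted snoRNA genes were near a summit. Over snoRNA and snRNA genes together that list turned the order, with 54.1% of independent and 56.4% of hosted members, beside 25.8% of all genes. For snRNA genes the shares were 22.7% of 66 independent genes, 11.5% of 26 on an opposite strand and 18.9% of 37 on the same strand. The last 2 counts are 3 and 7 genes, and their replicate counts were 3 and 4, and 7 and 7.

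**Figure D2:**
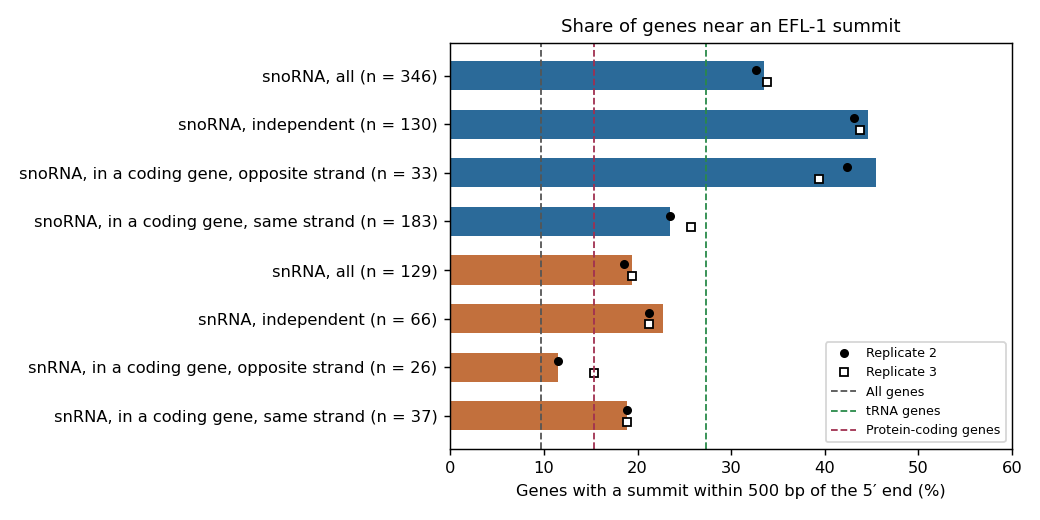
Share of snoRNA and snRNA genes (%) with a summit within 500 bp of the 5′ end, by place, with bars for the IDR list, points for each replicate's own 4534 strongest regions and dashed lines for gene classes. The snoRNA genes outside a same-strand host lie at 39.4% or above in each list plotted, beyond the tRNA line at 27.3%, and those inside one lie between 23.5% and 25.7%.

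Peaks near these genes were of middling height. The 141 genes shared 137 distinct peaks, with a median rank of 2117 of 4534. The replicates' ranks of the 137 peaks had a Spearman coefficient of 0.9 over these peaks, which share their calls with the joint list, and 130 of them were in both top lists. Peaks with a summit up to 100 bp upstream had signal values from 51.3 to 1570 with a median of 135. In replicate 2 they ran from 32.9 to 985 with a median of 81.4, and in replicate 3 from 14.5 to 573 with a median of 56. Of the 453 strongest IDR peaks 3.09% were near a snoRNA or snRNA gene, close to 3.02% of all of them.

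**Figure D3:**
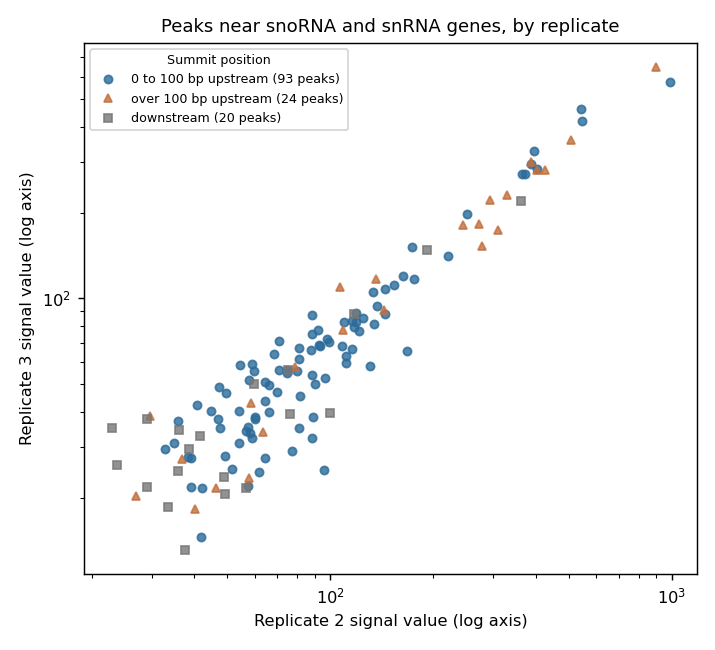
Signal value in replicate 2 (x) against replicate 3 (y), both on log axes and on the authors' scale, for the 137 peaks near snoRNA and snRNA genes, marked by summit position. The 93 peaks up to 100 bp upstream run from 32.9 to 985 in replicate 2 and from 14.5 to 573 in replicate 3, and the 20 peaks with only a downstream summit lie mostly among the low values.

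Among the snRNA genes, many of the spliced leader SL2 genes were near a summit. Of the 18 sls-2 genes 11 were near a summit, with 11 in replicate 2 and 10 in replicate 3, and 7 had it up to 100 bp upstream. sls-2.8 had the strongest peak of all members, rank 93 with its summit at −60 bp, and signal values of 985 in replicate 2 and 573 in replicate 3. The same summit lay 241 bp from a 5′ end of the protein-coding gene tim-1. The next of the sls-2 genes was sls-2.4, at rank 208 and −28 bp, with 547 and 419. sls-2.2 (rank 354, −40 bp) had 404 and 285, and sls-2.1 (rank 362, −55 bp) had 386 and 297. These SL2 genes were strong in both replicates, while other copies were weak. sls-2.3 had 46.9 and 37.6 at −32 bp, sls-2.7 had 76.3 and 39.3 at 6 bp, and sls-2.5, inside glr-2, had 48.7 and 23.6 at 28 bp. None of the 12 sls-1 genes, which encode the SL1 RNA, was near a summit in the IDR list or in either replicate list, and their nearest summit lay 23571 bp away. The sls-1 genes lie in a repeat on chromosome V between 17118154 and 17132107, and at most 21.8% of the 36-base words around their 5′ ends occur once in the genome. The 12 genes lie in the same repeat, so they are not 12 separate observations. Whether repeated sequence bears on the count of 0 of 12 was not tested.

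The other snRNA families were grouped by at least 80% sequence identity and are named by a member, since the annotation does not name their types. In the family of sup-39, 4 of 13 genes were near a summit, with 3 in replicate 2 and 4 in replicate 3. sup-39 and sup-6 are known from suppressor mutations in U1 snRNA genes. The summit of sup-6 lay at 1 bp, rank 866, with signal values of 192 in replicate 2 and 148 in replicate 3. That of sup-39 lay at −7 bp, rank 1870, with 87.7 and 66.1. mir-1831, which the annotation lists as snRNA and places within sup-39, shared that peak at −14 bp. Both suppressor genes lie inside a same-strand gene and over 1000 bp from its 5′ end, 3291 bp for sup-6 and 1385 bp for sup-39. In the family of C52E4.8 1 of 5 genes was near a summit. C52E4.8 itself had rank 197 at −58 bp, with 544 in replicate 2 and 460 in replicate 3, and the same peak lay 337 bp from the 5′ end of snr-4, an Sm protein gene.

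The largest family, that of B0205.15 with 24 genes, had 3 near a summit. W05B2.8 was the strongest at rank 402, −79 bp, with 364 and 272 in the replicates. F54D8.7 had 88.7 and 87.6 at −35 bp, and R07E5.16 had 56.5 and 34.3 at −72 bp. Each of these summits lay upstream of its gene in both replicates. In the family of C53B4.9 2 of 12 were near, F38E11.10 at −60 bp with 221 and 141, and F32B5.9 at −32 bp with 59.1 and 59.0. In the family of C05G6.4 only F08G2.10 of 19 was, 157 bp downstream. Of the 12 smy genes, which encode SmY RNAs, 3 were near 2 peaks. smy-2 (−46 bp) and smy-1 (327 bp) shared one, and smy-3 (−55 bp) had the other. The annotation lists smy-1 as snRNA but smy-2 and smy-3 as snoRNA. In the counts by class smy-2 and smy-3 are therefore among the snoRNA genes. The unrelated M163.13, on the X chromosome, had a weak summit at −26 bp with 32.9 and 29.6. Many of these genes are repeated: 83 of the 129 snRNA genes had under 90% unique words around the 5′ end, and 13 of those were near a summit (15.7%), against 12 of the other 46 (26.1%). Fewer snoRNA genes are repeated: 29 had under 90% unique words, and 6 of those were near a summit (20.7%). Of the other 317 snoRNA genes 110 were (34.7%). At either level the snoRNA share stood above the snRNA share, but by less than over all genes of the classes. How reads with several matches were treated is not given in the sources used here, and its part in these counts was not tested.

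Patterns in the promoter went with the summit. The snRNA-type element was found at 35.7% of snRNA genes and 10.7% of snoRNA genes, against 1.05% of other genes. The box B pattern was found at 14.5% of snoRNA genes and 4.74% of other genes, and both boxes together at 7.51% of snoRNA genes against 0.127% of other genes. In tRNA genes box B lies further inside the gene than this range reaches. Of the 83 members with the snRNA-type element, 37 were near a summit (44.6%), with 35 in replicate 2 and 37 in replicate 3. Of the 61 with box B but not that element, 30 were (49.2%), with 31 and 29. Of the 331 with neither, 74 were (22.4%), with 71 and 76. The classes with a pattern stood above the class without one in each list. That gap is a description only, because the patterns and ranges were chosen after the promoters of bound genes had been seen. Other genes with the element, with box B and with neither were near a summit in 9.41%, 6.84% and 9.66%.

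The difference was wider for summits up to 100 bp upstream, with the same limit. They were at 30 of 83 genes with the snRNA-type element (36.1%), at 29 of 61 with box B (47.5%) and at 35 of 331 with neither (10.6%). In replicate 2 the counts were 24, 28 and 37, and in replicate 3 they were 28, 25 and 36. Other genes of the genome with the same patterns had such a summit in 2.25% and 1.15%, close to 1.73% of those with neither. Of the 27 members with both boxes, 21 had a summit in this range (77.8%), with 20 in replicate 2 and 19 in replicate 3. Among snoRNA genes the share was 60.4% with box B, 54.1% with the snRNA-type element and 10.7% with neither. Among snRNA genes the 13 with box B had none, and 12 of them had few unique words. Of these 13 genes 10 are sls-1 genes in the repeat on chromosome V, so they are not separate observations. They also count among the 61 with box B.

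The positions are given as a description, since both the range of the summits and the ranges searched for the patterns hold them near the 5′ end. With the snRNA-type element the element started at a median of −58.5 bp and the summit lay at a median of −40 bp. With box B the box started at −14 bp and the summit lay at −47 bp. In the 21 genes with both boxes, box A started at a median of −58 bp, the summit lay at −50 bp and 12 of the 21 summits lay between the boxes. Since the fragments were sized 150 to 350 bp, per the labels, the summit is not resolved to single bases.

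**Figure D4:**
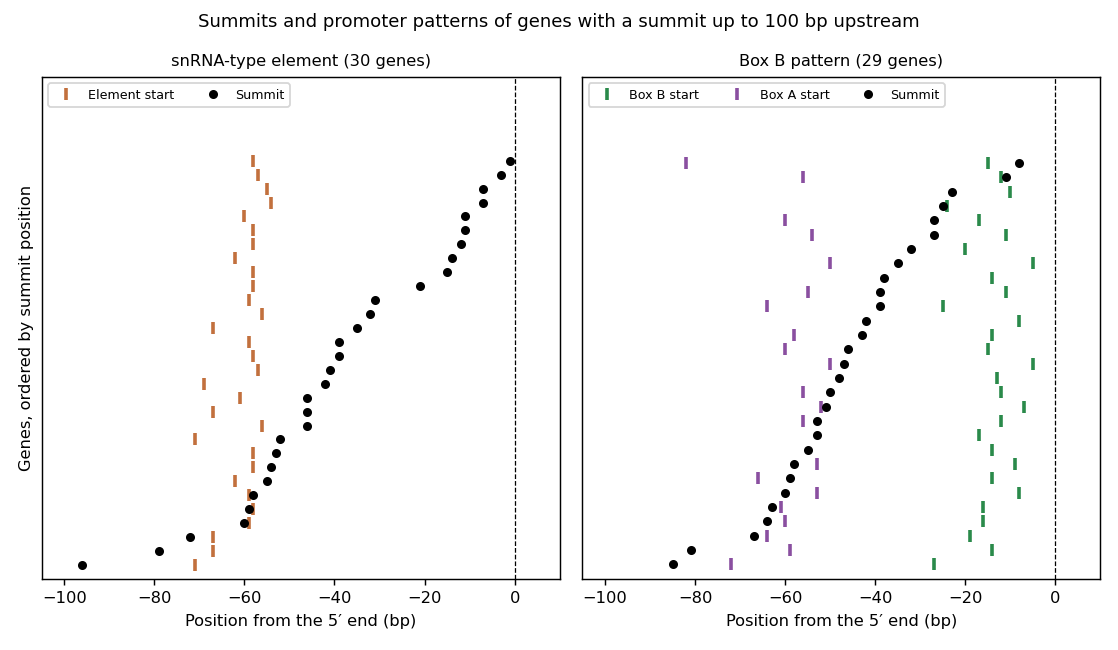
Positions in bp from the 5′ end of the summit (black points) and of the promoter patterns (vertical ticks) in each gene with a summit up to 100 bp upstream, 30 with the snRNA-type element and 29 with box B, ordered by summit. Element starts have a median of −58.5 bp while summits range from −96 to −1 bp, and in the right panel box B starts to the right of most summits.

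Of the E2F-type patterns searched on both strands within 100 bp of a summit, TTCCCGC occurred at 3.23% of the 93 summits up to 100 bp upstream of a member and at 5.69% of all IDR summits. TTCGCGC occurred at 3.23% against 5.76%, and TTGGCGC at 5.38% against 5.4%. The CHR-type pattern TTTGAA occurred at 19.4% against 36.1%. The 93 summits thus carried none of these patterns more often than the peaks at large.

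For the members inside a same-strand host, upstream summits lay at the member or near the host's start. Of the 220, 31 had a summit up to 100 bp upstream of their own 5′ end, 11 had it over 100 bp upstream and 8 had it downstream. The 31 lay a median of 1430 bp from the host's 5′ end, and 30 of them were in an intron without overlapping an exon. The 11 lay a median of 169 bp from the host's 5′ end. They lay 33 to 335 bp from it, so a summit at most 500 bp upstream of them had to lie within 500 bp of it. That all 11 peaks did is thus fixed by the distances and does not tell which gene a peak belongs to. Of the 31, 6 had their peak within 500 bp of the host's 5′ end. Hosts with a summit within 500 bp of a 5′ end held 10 of the 31, and some of these hosts were reached only by the member's own peak. Of the 8 downstream summits 2 belonged to a peak within 500 bp of the host's 5′ end, and those 8 members lay a median of 1512 bp from it. F58D5.12 was one of them, with its summit at 236 bp and the 5′ end of its host 2790 bp away. Among members whose host started over 500 bp away, 29 of 175 had a summit up to 100 bp upstream, and none had it further upstream within the window. Where the host started within 500 bp, the counts were 2 and 11 of 45.

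**Figure D5:**
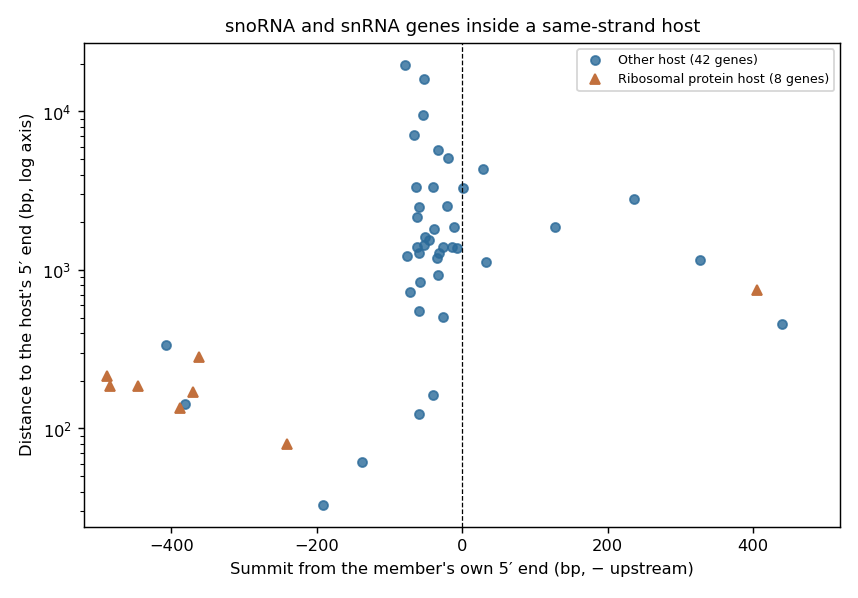
Summit position from the member's own 5′ end (bp, x) against the distance to the host's 5′ end (bp, log y) for the 50 members inside a same-strand host and near a summit, 8 of them in ribosomal protein genes. Members far from the host's start sit mostly between −100 and 0 bp, and those in ribosomal protein genes lie to the left at −488 to −241 bp, except 1 at 405 bp.

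W05B2.8 lay 19735 bp into dhc-4 and had its summit at −79 bp. M106.6 lay 16071 bp into mix-1, a condensin gene, with a summit at −53 bp and signal values of 119 in replicate 2 and 88.8 in replicate 3. K11C4.6 lay 7098 bp into unc-70, a spectrin gene, with a summit at −67 bp and values of 58.3 and 33.8. T24H7.6 and C05D2.15 had 116 and 66.3, and 116 and 83.6, at −27 and −60 bp. These were box B genes except W05B2.8. T06D8.11, inside plpr-1, had 54.3 and 58.5 at −11 bp, and F01D5.12 had 74.5 and 54.8 at −21 bp, both with the snRNA-type element. C10C6.8, inside catp-8, had 88.8 and 38.4 at −20 bp with neither. Each of these members lay over 1000 bp from the 5′ end of its host.

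The hosts themselves were often bound. Of 191 hosts 69 had a summit within 500 bp of a 5′ end (36.1%), against 16.0% of the protein-coding genes with an intron at least as long as the shortest that holds a member. All 15 ribosomal protein hosts were bound, and among the other 176 hosts 54 were (30.7%). The strongest host peaks were those of cdc-48.1 (rank 4), a segregase of ubiquitinated proteins, hrpu-2 (rank 25), eef-1G (rank 57), a translation elongation factor, rnr-1 (rank 64), the large subunit of ribonucleotide reductase, and iff-2 (rank 74). None of their members was within 500 bp of a summit. Of the hosts with 3 or more members, nol-56 with 4, a core box C/D protein gene, had rank 612, top-2 had rank 89 and rpl-6 rank 259, while mam-3 and unc-31 had no summit within 500 bp.

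The 23 members inside ribosomal protein genes differed from the rest in where the summit lay. Of these 8 were near a summit and none had it up to 100 bp upstream, against 31 of 197 in other hosts. The 2 groups were not matched for the distance to the host's 5′ end. Among all hosted members such a summit was at 2 of 45 whose host started within 500 bp and at 29 of 175 further in. The median distance of the 8 was −379 bp. F54E7.10 in rps-12 had rank 95, with its summit at −241 bp and values of 899 and 649 in replicates 2 and 3. That summit lay 132 bp from a 5′ end of the protein-coding gene ska-3, nearer than the 161 bp to rps-12. Y24D9A.9 in rpl-7A had rank 266 at −362 bp with 506 and 358, and D1007.20 in rpl-24 had rank 360 at −388 bp with 388 and 301. Each of these peaks lay within 500 bp of the ribosomal protein gene's 5′ end. The summits near B0041.9, F28C6.11 and Y43B11AR.7 were also nearer to another protein-coding gene than to the host: B0041.8, cpf-1 and Y43B11AR.3. At the rest of the 8 the nearest 5′ end of a protein-coding gene was the host's.

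Outside a same-strand host, the nearest summits were within 11 bp of the 5′ end. Y55F3BR.9 (−1 bp) had signal values of 163 in replicate 2 and 120 in replicate 3, and Y74C9A.6 (−11 bp) had 88.7 and 74.8. C41C4.11 (−11 bp) had 81.4 and 45.6. K02A11.12 at −2 bp, F47G4.9 at −3 bp, C07A9.14 at −7 bp, F43A11.8 at 8 bp, H04D03.5 at −8 bp and C05H8.3 at 10 bp ranked from 2955 to 4353. Among the 4534 strongest regions of one replicate F43A11.8 and H04D03.5 had no summit near: it lay 12309 bp away in replicate 2 for F43A11.8 and 3876 bp away in replicate 3 for H04D03.5. Their signal values were 23.8 in replicate 2 and 26.1 in replicate 3 for F43A11.8, and 41.7 and 14.5 for H04D03.5. The nearest summits were therefore not the strongest ones. Among the strongest were Y53F4B.47, rank 336 at −82 bp with 396 and 328, and M7.15, rank 347 at −127 bp with 424 and 283. The summit of Y53F4B.47 also lay 139 bp from a 5′ end of the protein-coding gene cmtr-1.

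The share near a summit varied by chromosome, both for the members and for all genes. On X 3 of 36 members were near a summit (8.33%), close to 7.94% of all genes there. On the autosomes the members stood above all genes, with 36.7% against 20.2% on chromosome I, 36.8% against 14.4% on II and 31.3% against 21.7% on III. The shares were 26.0% against 4.64% on IV and 27.4% against 9.31% on V. Chromosome IV has 19704 annotated genes, piRNA genes included, against 3859 to 7870 on each other chromosome. Gene classes were not separated by chromosome, so the all-gene shares are not like-for-like backgrounds. The 3 on X were D2021.6, C34E11.20 and M163.13, with summits between −34 and −26 bp.

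Protein partners of these RNAs were also near summits. The lists were chosen with earlier results known, and 16.3% of protein-coding genes had a summit within 500 bp of any 5′ end. Of the Sm and LSm proteins, the rings that bind snRNAs, 11 of 14 genes did, led by lsm-5 (rank 114) and snr-4 (rank 197). Of the list of snoRNP proteins 9 of 12 did, led by Y48A6B.3 (rank 52) and fib-1 (rank 229), the fibrillarin that methylates RNA. That list had taken in gar-1 and nop-1 by symbol alone, which in worms name an acetylcholine receptor and an embryonic cleavage gene. Without them the count was 8 of 10. Some peaks in these lists were also counted for members above, that of snr-4 for C52E4.8 and that of nol-56 for K07C5.11. Of the genes for snRNA transcription and 3′ end processing 12 of 18 did, led by ints-4 of the Integrator complex (rank 40) and snpc-1.1 of SNAPc (rank 970). Of the list of U1, U2 and SMN proteins 4 of 9 did, led by sna-2 (rank 327), a protein of the SL1 and SmY particles, and rnp-2 (rank 1878). That list also took in sna-1, sna-2 and sut-2, so its count is not of U1, U2 and SMN proteins alone.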

How the data were processed

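EFL-1 ChIP-seq peak lists on ce11 in narrowPeak form were used, with both replicates in 1 group. Per the deposited descriptions, the authors called regions in each replicate and in both together against a control (25572, 27203 and 21875 regions), and made the IDR list of 4534 peaks from the joint one. Peaks were ranked within a list by the authors' deposited signal value. The deposited −log10 q value did not rank the IDR peaks, and the summit is the authors' deposited offset from the peak start. No source used here gives the aligner, peak caller or IDR threshold, and depth is unknown.

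Genes came from Ensembl release 115 and sequence and names from RefSeq's WBcel235. Python 3.11.15 with pandas 2.3.3, numpy 2.4.6 and biopython 1.88 was used. A gene was near a summit within 500 bp of its 5′ end, and a host was a protein-coding gene that contained the whole member. Distances were checked on simulated data. The members, lists and patterns were chosen with earlier results of these data known. Genes were named by rule: the 10 nearest outside and 6 nearest inside a same-strand host, the 10 strongest, the 10 nearest snRNA genes, 2 on each side of 500 bp, the 5 strongest hosts, hosts of at least 3 members and the 2 strongest of each protein list. Others were chosen after their values were seen. No test was run, because 1 group gives no contrast. The unused ce10 lists and the named control were not analysed here.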

Additional observations from a re-analysis of the deposited data

How the results depend on the processing

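Leaving out either replicate's list moved the 141 members near a summit to between 137 and 142. The 2267 strongest IDR peaks gave 77 members in all, 65 snoRNA, 12 snRNA, 33 inside a same-strand host and 39 independent, and 53 with a summit up to 100 bp upstream. Every region of the joint list gave 257 (54.1%), 207 (59.8%), 50 (38.8%), 124 (56.4%) and 106 (54.1%) for the first 5 of these, so the share of independent members, above that of hosted ones in the IDR list, fell below it. The cause was not tested. Of the 46 snRNA genes with at least 90% unique words 12 were near a summit. For members inside a same-strand host a 1000 bp window gave 78, and counting a summit only for its nearest 5′ end gave 32. A 250 bp window gave 43 bound hosts. With GAA in place of AA, an alternative chosen after seeing the data, 24 of 52 genes with the snRNA-type element were near a summit. The other 53 values stayed within 1.5 times the reported count. No paired analysis was possible because there was 1 group. Depth is unknown, no background sample was used, and 2 replicates of 1 genotype limit every count to description.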
